A study of Mus musculus with 23 samples.

Results

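The 47 genes described here form a module of DNA replication. Most code for proteins that find and license origins, fire them, and run the replication fork, and 4 are grouped here under S phase entry. The 47 were chosen by name as a functional module. All 47 of 47 were found among the 19938 gene symbols that the array annotation ties to a probe set of their own. All 47 exceeded the filter on low values on all 23 arrays, so none was lost from the 15542 genes tested. Origin recognition had 6 of the genes, licensing 3, the MCM helicase 6, origin firing 8, polymerase alpha-primase 4, the leading and lagging strand polymerases 5, the sliding clamp and its loader 6, Okazaki fragment maturation 2, replication protein A 3 and S phase entry 4.

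RNA was measured on 1-colour arrays in mouse bone marrow samples, 1 array each, and values are log2 signals as deposited. Every animal, controls included, had received a single dose of 2 Gy of ionising radiation at 2 months of age, and no unirradiated group was analysed here. Pax5+/- mice lack 1 copy of Pax5, a transcription factor needed for commitment to the B cell lineage. Leukemic marrow came from 10 Pax5+/- mice (samples 1 to 10), with 3 wild-type (WT) samples (14, 15 and 17). Pro-B plus pre-B cells collected before leukemia, 3 weeks after irradiation, came from 7 Pax5+/- mice (11 to 13 and 21 to 24), with 3 WT samples (18 to 20). The labels give no mouse numbers for the WT samples. The leukemic samples are pro-B cells by their titles and bone marrow by their descriptions, no sort is stated for them, and their age, strain and sex are not given. Stage therefore cannot be told apart from the stage of B cell differentiation, from age or from how the cells were isolated. WT sample 16 was not analysed here.

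Origins are prepared and used at separate times of the cell cycle. In G1 the origin recognition complex, with Cdc6 and Cdt1, loads the ring-shaped MCM helicase on DNA without activating it, and geminin blocks reloading later in the cycle. In S phase the Cdc7-Dbf4 kinase and cyclin E-dependent kinase bring Cdc45 and the GINS complex to the ring, polymerase alpha-primase lays down primers, and polymerases epsilon and delta extend the leading and lagging strands on the PCNA clamp. Most of these genes are known targets of E2F transcription factors, and large pre-B cells in the marrow are among the fastest dividing cells of the adult mouse, so preleukemic cells are not a resting reference.

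The samples were checked against cell type markers. Of 10 B cell precursor markers 9 were measured, and the preleukemic samples each had all 9 above the median of the array, the leukemic samples 8 of them. Their mean level ran from 11.9 to 12.2 in preleukemic samples, from 10.4 to 11.5 in Pax5+/- leukemias and from 9.40 to 11.0 in WT leukemias. Mean levels of 5 megakaryocyte markers ran from 6.61 to 6.82 before leukemia and from 8.20 to 11.2 in Pax5+/- leukemias. Mean levels of 10 neutrophil markers ran from 6.52 to 7.29 in Pax5+/- preleukemic cells and from 6.53 to 11.3 in Pax5+/- leukemias. WT preleukemic sample 20 stood apart from its group, with a neutrophil marker mean of 10.96 against 6.91 in sample 18 and 6.99 in sample 19, and an erythroid marker mean of 8.92 against 7.41 and 7.47. In such mixtures fewer cells of a type and less RNA per cell cannot be told apart. Pax5 itself had median log2 levels of 11.36 in Pax5+/- preleukemic cells and 8.33 in Pax5+/- leukemias. Its leukemic minus preleukemic difference was -2.86 in Pax5+/- and -2.55 in WT mice, and both passed the test described below. The Pax5+/- minus WT difference was -0.42 before leukemia and -0.74 in leukemia, and neither passed.

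Promoter sequences from RefSeq (GRCm38.p6) were set beside the expression values because the module is known for E2F control. A window of 250 bases before to 50 after the annotated start was found for 38 of the 47 genes. The E2F-type letters TTTGGCGC or TTTCCCGC, on either strand, occurred in 13 of the 38 genes (34.2%) and in 486 of 27025 genes in the whole table (1.80%). The cell cycle homology letters TTTGAA occurred in 7 of 38 (18.4%, against 20.2% of all genes), and CCAAT in 22 of 38 (57.9%, against 41.1%). The 3 sets of letters do not overlap one another in sequence, and a match describes letters, not a bound site. The windows below are shown for 4 genes that rose in leukemia and carry the E2F-type letters (in capitals), including Pole2, Mcm6 and Mcm3, and for Orc4, which fell and carries none.
Pole2: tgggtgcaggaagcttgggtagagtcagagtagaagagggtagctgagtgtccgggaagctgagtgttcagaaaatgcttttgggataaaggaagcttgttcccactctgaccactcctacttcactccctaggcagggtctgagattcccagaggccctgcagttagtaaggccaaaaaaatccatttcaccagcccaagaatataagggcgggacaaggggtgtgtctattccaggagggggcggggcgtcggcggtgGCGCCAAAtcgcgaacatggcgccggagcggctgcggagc
Mcm6: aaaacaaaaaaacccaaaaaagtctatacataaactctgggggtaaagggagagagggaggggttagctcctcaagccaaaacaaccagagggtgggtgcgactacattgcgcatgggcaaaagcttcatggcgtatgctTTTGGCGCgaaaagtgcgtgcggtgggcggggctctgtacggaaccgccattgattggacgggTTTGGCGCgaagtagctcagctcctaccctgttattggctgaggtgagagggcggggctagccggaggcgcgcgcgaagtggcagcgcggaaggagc
Mcm3: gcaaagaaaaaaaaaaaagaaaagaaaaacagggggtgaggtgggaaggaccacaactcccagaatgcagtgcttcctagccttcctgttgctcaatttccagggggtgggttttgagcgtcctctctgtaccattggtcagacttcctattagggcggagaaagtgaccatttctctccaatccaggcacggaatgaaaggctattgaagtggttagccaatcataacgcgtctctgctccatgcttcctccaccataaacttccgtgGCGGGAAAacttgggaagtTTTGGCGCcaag
Pola1: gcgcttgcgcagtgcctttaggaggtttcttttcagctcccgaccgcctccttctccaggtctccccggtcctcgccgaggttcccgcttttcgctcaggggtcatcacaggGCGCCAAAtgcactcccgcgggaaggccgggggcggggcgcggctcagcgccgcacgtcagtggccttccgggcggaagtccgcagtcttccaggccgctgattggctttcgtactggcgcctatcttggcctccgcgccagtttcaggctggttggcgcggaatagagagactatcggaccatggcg
Orc4: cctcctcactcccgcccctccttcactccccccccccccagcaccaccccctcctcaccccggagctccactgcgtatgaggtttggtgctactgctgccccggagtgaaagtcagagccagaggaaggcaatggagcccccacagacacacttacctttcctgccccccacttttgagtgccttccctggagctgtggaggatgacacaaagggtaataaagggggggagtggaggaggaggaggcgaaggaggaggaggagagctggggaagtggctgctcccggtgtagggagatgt
All 5 windows lie on the minus strand and are written 5′ to 3′ along the gene. In Pole2 (chr12:69228141-69228440) the match began 10 bases after the start, and in Pola1 (chrX:93632106-93632405) it began 138 bases before it. Mcm6 (chr1:128359656-128359955) held matches beginning 110 and 47 bases before the start. Mcm3 (chr1:20820263-20820562) held matches beginning 19 and 38 bases after the start. The Orc4 window (chr2:48950032-48950331) is 1 of 3 that RefSeq gives for that gene.

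**Figure D1:**
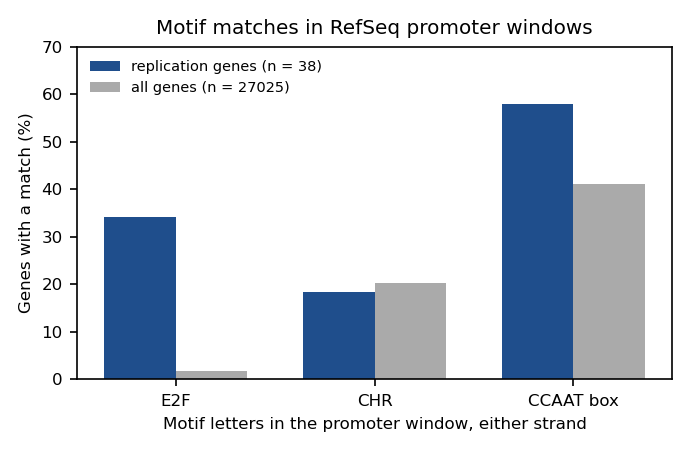
Share of genes (%) whose promoter window holds each set of letters on either strand, for the 38 replication genes with a window (blue) and for all 27025 genes (grey). The E2F-type letters stand at 34.2% against 1.80%, while the CHR letters stand at 18.4% against 20.2% and CCAAT at 57.9% against 41.1%.

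In Pax5+/- mice most of the replication genes were higher in leukemia than in preleukemic pro-B and pre-B cells, by amounts that varied from gene to gene. Whether genes or subunits differ from one another was not tested, and passing in 1 gene but not in another is no test of that. Of the 47 genes, 32 rose (68.1%) and 1 fell, Orc4, at an adjusted p under 0.05 by limma. Over all genes tested 28.0% rose and 36.5% fell, so 64.6% passed in either direction. The median log2 difference of the 47 genes was 0.53 (range -0.32 to 1.22), beside -0.05 for all genes tested. Pole, Pole2, Cdc7, Pold2 and Dbf4 had the largest rises, and all 6 genes of the MCM ring rose. The clamp Pcna did not pass, nor did E2f1, Ccne2 and Slbp. Values below are log2 differences of leukemic minus preleukemic group means, each with its standard error (SE), with Benjamini-Hochberg adjusted p over all genes tested, for 10 against 7 samples.

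**Figure D2:**
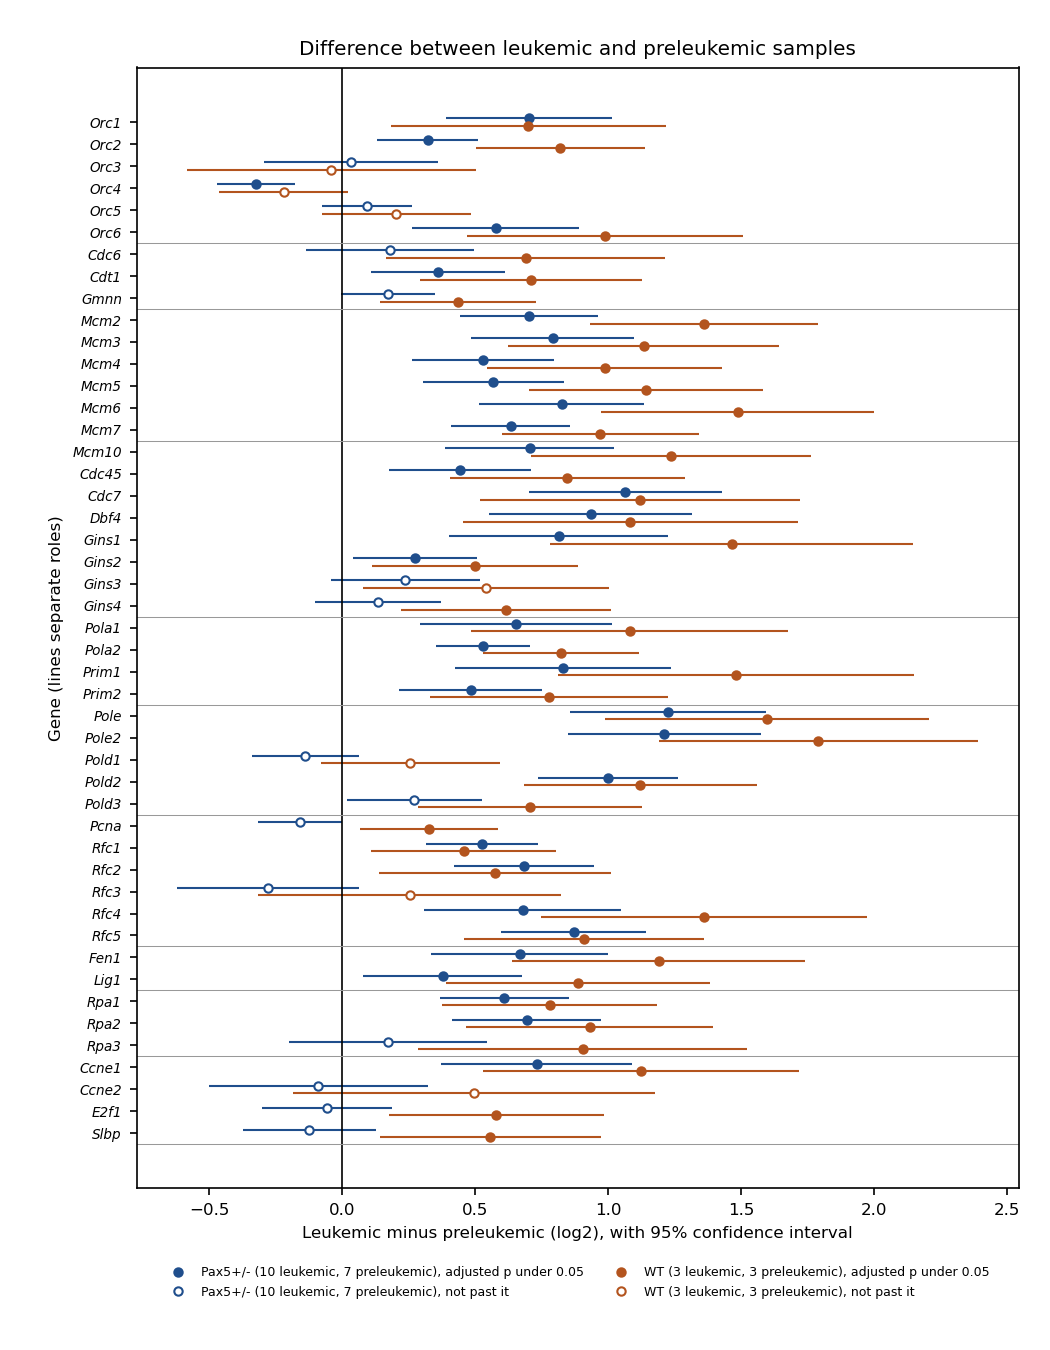
Log2 difference (leukemic minus preleukemic) of each of the 47 genes, ordered by role, in Pax5+/- mice (10 against 7 samples) and WT mice (3 against 3), with 95% confidence intervals. In Pax5+/- mice the values run from -0.32 for Orc4 to 1.22 for Pole, and 43 of the 47 WT values are above the Pax5+/- value of the same gene.

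Among the replicative polymerases the differences varied by subunit. Pole, the catalytic subunit of the leading strand polymerase epsilon, ran from 7.92 to 8.75 (median 8.55) in preleukemic cells and from 9.18 to 9.94 (median 9.70) in leukemias. The groups did not overlap, and the difference was 1.22 (SE 0.18, adjusted p = 5.18e-06, limma), or 2.34-fold. Pole2, the second subunit of the same enzyme, ran from 6.71 to 7.33 (median 6.88) before leukemia and from 7.76 to 8.65 (median 8.26) in leukemia, again with no overlap (1.21, SE 0.17, adjusted p = 5.2e-06, limma). Pold2, an accessory subunit of the lagging strand polymerase delta, ran from 8.70 to 9.13 (median 9.08) before and from 9.38 to 10.31 (median 9.99) in leukemia, a difference of 1.00 (SE 0.13, adjusted p = 1.04e-06, limma). Its catalytic partner Pold1 differed by -0.14 (95% interval -0.34 to 0.07), and the third subunit Pold3 by 0.27 (adjusted p = 0.0567, limma). Of these 3 polymerase delta subunits, Pold2 rose and Pold1 and Pold3 did not pass the test.

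All 4 polymerase alpha-primase genes, whose enzyme makes the RNA-DNA primers, rose. Prim1, the catalytic primase subunit, ran from 7.97 to 8.92 (median 8.09) before and from 8.46 to 9.56 (median 9.19) in leukemia, and its groups overlapped (0.83, SE 0.19, adjusted p = 0.000972, limma). The other three rose by 0.48 (Prim2) to 0.65 (Pola1) on the log2 scale, and for Pola2 every leukemia lay above every preleukemic sample.

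Each of the 6 genes of the MCM2-7 ring, the core of the replicative helicase, rose, by 0.53 to 0.83 with a median of 0.67. Mcm6 ran from 9.37 to 10.23 (median 9.81) before and from 10.23 to 11.08 (median 10.79) in leukemia, touching at a single value (0.83, SE 0.15, adjusted p = 7.45e-05, limma). Mcm3 ran from 8.21 to 8.99 (median 8.76) before and from 9.05 to 9.91 (median 9.54) in leukemia (0.79, SE 0.15, adjusted p = 0.000105, limma). Mcm3 and Mcm7 were the members of the ring whose groups did not overlap. The narrow range of differences across the ring contrasts with the spread among the polymerase delta subunits, a contrast that was not tested.

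Among the 8 origin firing genes 6 rose. Cdc7, the kinase that phosphorylates the loaded ring, ran from 6.04 to 6.86 (median 6.60) before and from 7.09 to 8.20 (median 7.44) in leukemia, with no overlap (1.06, SE 0.17, adjusted p = 2.52e-05, limma), and lay near the array median in preleukemic cells. Its activating subunit Dbf4 ran from 7.44 to 8.12 (median 7.89) before and from 8.11 to 9.09 (median 8.83) in leukemia (0.93, SE 0.18, adjusted p = 0.000176, limma), with a single leukemia below the highest preleukemic sample. Mcm10, which acts when the helicase is activated, ran from 7.40 to 8.17 before and from 7.88 to 8.92 in leukemia (0.71, SE 0.15, adjusted p = 0.000478, limma). Cdc45, a part of the active helicase, rose by 0.44 on the log2 scale. Of the GINS complex, which binds the ring with Cdc45, Gins1 rose by 0.81 (SE 0.20, adjusted p = 0.00135, limma) and Gins2 by 0.28 (passing in 26 of 36 settings of the fit). Gins3 (0.24) and Gins4 (0.13) did not pass, though Gins2 and Gins3 had similar differences.

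Origin recognition and licensing had median differences of 0.21 and 0.18, below those of the MCM ring and of origin firing. Orc1, Orc2 and Orc6 rose by 0.70, 0.32 and 0.58, though Orc1 was a weak signal, above the array median on 12 of 23 arrays. Orc4, a core subunit of the recognition complex, ran from 8.34 to 8.61 (median 8.59) in preleukemic cells and from 8.01 to 8.43 (median 8.17) in leukemias. It was the single gene of the 47 that fell (-0.32, SE 0.07, adjusted p = 0.00053, limma), with the lowest preleukemic sample below the highest leukemia. Orc3 (0.03) and Orc5 (0.09) did not pass. Of the licensing genes, the loader Cdt1 rose by 0.36, whereas the loader Cdc6 (0.18, 95% interval -0.14 to 0.50) and the Cdt1 inhibitor geminin, Gmnn (0.17, adjusted p = 0.0826, limma), did not pass. Gmnn was also a weak signal, above the array median on 6 of 23 arrays.

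Differences also varied among the clamp and loader genes. Pcna, the sliding clamp, ran from 12.20 to 12.52 (median 12.26) before and from 11.88 to 12.34 (median 12.14) in leukemia, with overlapping groups, and differed by -0.16 (95% interval -0.31 to 0.00, adjusted p = 0.0737, limma). A second Pcna probe set differed by -0.15. Rfc5, a small subunit of the loader, ran from 8.93 to 9.53 (median 9.25) before and from 9.54 to 10.47 (median 10.20) in leukemia, with no overlap (0.87, SE 0.13, adjusted p = 8.94e-06, limma). Rfc1, Rfc2 and Rfc4 rose by 0.52, 0.68 and 0.68, and Rfc3 did not pass (-0.28, 95% interval -0.62 to 0.06). The Okazaki fragment flap nuclease Fen1 and ligase Lig1 rose by 0.67 and 0.38. Of replication protein A, which coats single-stranded DNA, Rpa1 and Rpa2 rose by 0.61 and 0.69, while Rpa3 (0.17) did not pass, and a second Rpa3 probe set had a difference of -0.001.

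At S phase entry, Ccne1, a cyclin E that activates Cdk2, ran from 7.63 to 8.35 (median 7.99) before and from 7.80 to 9.06 (median 8.69) in leukemia, and rose by 0.73 (SE 0.17, adjusted p = 0.00102, limma). The second cyclin E gene, Ccne2, differed by -0.09 (95% interval -0.50 to 0.32). E2f1, an activator of replication genes, ran from 8.08 to 8.67 (median 8.39) before and from 7.73 to 8.76 (median 8.47) in leukemia, with the preleukemic range inside the leukemic one (-0.06, 95% interval -0.30 to 0.19). Slbp, which binds histone mRNA, differed by -0.12 (95% interval -0.37 to 0.13).

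In 8 of the 47 genes every leukemia lay above every preleukemic sample (Mcm3, Mcm7, Cdc7, Pola2, Pole, Pole2, Pold2 and Rfc5), a share of 17.0%, where 11.7% of all genes tested did so. The E2F-type letters were in the promoter windows of 7 of the 26 genes that rose and had a window. They were also in 6 of the 11 that did not pass, namely Orc3, Cdc6, Gins3, Pold1, Pold3 and Rfc3. Markers of other cells moved with the stage, since 10 of 10 neutrophil, 8 of 9 monocyte and macrophage, 5 of 5 megakaryocyte and 7 of 7 stroma markers rose and 6 of 9 B cell precursor markers fell. Their part in the replication gene differences was not tested. The first letters of the mouse numbers also differ by stage (U, Y and L in leukemia, I and L before), and within L, with 1 leukemia against 3 preleukemic samples, 42 of the 47 genes were higher in the leukemia (median difference 0.66), where 44.7% of all genes tested were. The 5 that were lower there were Orc4, Orc5, Pcna, Rfc3 and E2f1.

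**Figure D3:**
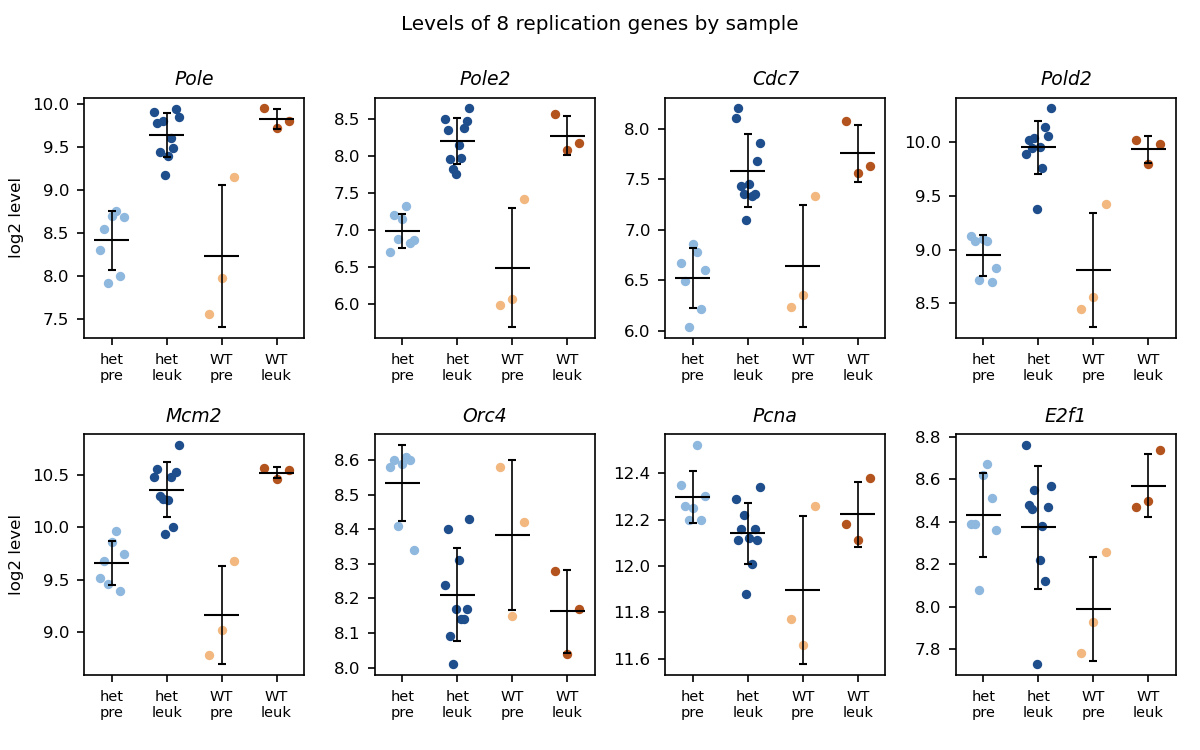
Log2 level of 8 replication genes in each sample of the 4 groups (points), with group mean and SD (bars); the y axes do not start at 0. Pole, Pole2, Cdc7 and Pold2 separate by stage in Pax5+/- mice, whereas Pcna and E2f1 overlap. WT preleukemic sample 20 lies above its group in the genes shown other than Orc4, where sample 18 is higher.

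The same stage comparison in WT mice, with 3 samples a group, gave rises in more of the genes. Of the 47, 40 rose (85.1%) and 0 fell, where 17.9% of all genes tested rose and 19.3% fell, or 37.2% in either direction. At an unadjusted p under 0.05 no gene of the 47 was lower, and the share of all genes at that threshold is not given here. The median log2 difference was 0.85 (range -0.22 to 1.79), beside -0.06 for all genes. In 36 of the 47 genes all 3 leukemias lay above all 3 preleukemic samples (76.6%), where 21.1% of all genes did so. Without preleukemic sample 20, 42 rose and the median was 1.13, without sample 18 or sample 19, 27 rose in each case, and without leukemia 14, 29 rose.

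Pole2 had log2 levels of 8.58, 8.08 and 8.18 in the leukemias 14, 15 and 17, and of 5.99, 6.06 and 7.42 in the preleukemic samples 18, 19 and 20. The groups did not overlap, and the gap rested mostly on samples 18 and 19 (1.79, SE 0.29, adjusted p = 8.85e-05, limma), or 3.46-fold. In samples 18 and 19 Pole2 lay near the array medians, which ran from 6.06 to 6.2. Pole followed, with 9.95, 9.72 and 9.80 in leukemia and 7.56, 7.97 and 9.15 before (1.60, SE 0.29, adjusted p = 0.000299, limma). Mcm6 had 10.98, 10.87 and 10.83 in leukemia and 9.02, 9.11 and 10.09 before (1.49, SE 0.25, adjusted p = 0.000115, limma). In each of these genes sample 20 lay between its own group and the leukemias.

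Prim1 had 9.54, 9.15 and 9.25 in leukemia and 7.33, 7.41 and 8.76 before (1.48, SE 0.32, adjusted p = 0.00141, limma). Gins1 had 8.61, 8.15 and 8.54 in leukemia and 6.46, 6.51 and 7.94 before (1.46, SE 0.33, adjusted p = 0.00179, limma). Mcm2 had 10.56, 10.46 and 10.54 in leukemia and 8.78, 9.02 and 9.68 before (1.36, SE 0.21, adjusted p = 4.67e-05, limma). In Prim1, Gins1 and Mcm2 all leukemias lay above all preleukemic samples. Rfc4 had 10.99, 10.88 and 10.85 against 9.24, 9.03 and 10.37 (1.36, SE 0.29, adjusted p = 0.00134, limma), and Mcm10 had 8.92, 8.72 and 8.76 against 7.19, 7.27 and 8.23 (1.24, SE 0.25, adjusted p = 0.000831, limma). All 6 ring genes rose, by 0.97 to 1.49.

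Set beside the Pax5+/- comparison, which has its own samples, 32 genes rose in both. A further 8 passed in WT alone: Cdc6, Gmnn, Gins4, Pold3, Pcna, Rpa3, E2f1 and Slbp. None of them passed in every setting of the fit. Cdc6 and Slbp passed in 28 of 36 settings, E2f1 in 30, Gmnn in 31, Pold3 and Rpa3 in 32 and Gins4 in 33. A second Rpa3 probe set had a WT difference of 0.46, against 0.90 for the one used. Passing in 1 genotype is no test of a difference, which is given below as the interaction. Pcna had 12.18, 12.11 and 12.38 in WT leukemias and 11.77, 11.66 and 12.26 before, so that sample 20 overlapped the leukemias (0.33, SE 0.13, adjusted p = 0.0457, limma), and it passed in 18 of 36 settings of the fit. Orc4 had 8.28, 8.04 and 8.17 in leukemia and 8.58, 8.15 and 8.42 before, and its difference of -0.22 did not pass (adjusted p = 0.143, limma). Orc3, Orc5, Pold1, Rfc3 and Ccne2 passed in neither genotype, and neither did Gins3.

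The fit shares a single variance per gene among the 4 groups, and the WT preleukemic group was the most variable for these genes, with a median within-group SD of 0.47 against 0.15 to 0.27 in the other groups. Xist exceeded the Y-linked gene Eif2s3y in 3 of 3 WT leukemic samples and in 0 of the 3 taken from WT mice before leukemia. Sex and stage therefore cannot be told apart in WT mice. With Xist as a covariate 35 of the 47 rose, as did 2435 of the 15542 genes tested. That fit cannot separate sex from stage in WT mice, because the 2 go together there. Markers of other cells moved with the stage in WT mice too, since 5 of 5 megakaryocyte, 6 of 7 stroma, 6 of 9 monocyte and macrophage and 2 of 5 erythroid markers rose and 7 of 9 B cell precursor markers fell. The 10 neutrophil markers had a median difference of 2.05, above 0 in 10 of 10, and did not pass. Their part in the WT replication gene differences was not tested.

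Before leukemia, Pax5+/- cells were compared with WT cells for the level of the replication genes. Xist exceeded Eif2s3y in 3 of 7 Pax5+/- and in 0 of 3 WT preleukemic samples, so sex is not balanced between the genotypes. None of the 47 passed (0 higher, 0 lower, limma), while 0.232% of all genes tested were higher in Pax5+/- cells, 0.392% lower, and 0.624% passed in either direction. At an unadjusted p under 0.05, 15 of the 47 were higher in Pax5+/- cells and 0 lower. The share of all genes at that threshold is not given here, so this count has no background beside it. The median log2 difference (Pax5+/- minus WT, 7 against 3 samples) was 0.27, beside 0.00 (0.0005) for all genes. With Xist as a covariate the median of the 47 was also 0.27. Of the 47 values 41 were above 0, as were 7776 of the 15542 over all genes tested. Pcna differed by 0.40 (SE 0.11, adjusted p = 0.0989, limma), with levels of 12.20 to 12.52 in Pax5+/- cells and 11.77, 11.66 and 12.26 in WT cells. Pold1 differed by 0.50 (SE 0.14, adjusted p = 0.117, limma), with 9.00 to 9.61 in Pax5+/- cells and 8.74, 8.86 and 8.86 in WT cells. It was the single gene of the 47 whose groups did not overlap, where 2.09% of all genes lay wholly higher and 3.10% wholly lower in Pax5+/- cells. Pold3 differed by 0.54 (SE 0.17, adjusted p = 0.234, limma).

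The count moved with WT sample 20. Without it, 7 of the 47 passed and were higher in Pax5+/- cells (Gins1, Mcm2, Mcm5, Pcna, Pold3, Pole2 and Rfc4), with a median difference of 0.54 over the 47, and Pcna differed by 0.58 (adjusted p = 0.0037, limma). Over all genes 0.335% were higher there. With arrays weighted by their fit, 21 passed and were higher, as were 1.35% of all genes. Without sample 18 the median was 0.12 and without sample 19 it was 0.18. In sample 20, 45 of the 47 genes (95.7%) lay above both other WT preleukemic samples, as did 29.2% of all genes tested. The median difference of the 47 genes from the mean of their group was 0.53 in sample 20, -0.31 in sample 18 and -0.20 in sample 19. All 21 measured mitosis genes were highest in sample 20 within the group, beside the neutrophil and erythroid values given above, and the part of these cells in its replication gene levels was not tested.

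Among leukemias none of the 47 genes passed between genotypes (0 of 47, limma), where 0.0257% of all genes were higher in Pax5+/- leukemias, 0.315% lower, and 0.341% passed in either direction. At an unadjusted p under 0.05, 2 of the 47 were lower in Pax5+/- leukemias, and the share of all genes at that threshold is not given here. The median log2 difference (Pax5+/- minus WT, 10 against 3 samples) was -0.09, with a range of -0.55 to 0.20. The median was -0.01 without WT leukemia 14 and -0.17 without WT leukemia 15. Xist exceeded Eif2s3y in 5 of 10 Pax5+/- and in 3 of 3 WT leukemias. With Xist as a covariate the median was -0.12. Ccne1 ran from 7.80 to 9.06 in Pax5+/- leukemias and was 9.22, 9.27 and 9.22 in WT leukemias, with no overlap (-0.55, SE 0.23, adjusted p = 0.686, limma), where 0.309% of all genes lay wholly lower. Gmnn differed by -0.24 (adjusted p = 0.82, limma) and Orc5 by 0.20 (adjusted p = 0.919, limma). Erythroid marker means ran from 6.73 to 7.28 in Pax5+/- leukemias and were 7.31, 9.40 and 9.53 in WT leukemias 14, 15 and 17. Of 5 erythroid markers 2 were lower in Pax5+/- leukemias, and the part of such cells in these genotype differences was not tested.

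The interaction, the Pax5+/- stage difference minus the WT stage difference, passed in 0 of the 47 genes by limma, where 0.0965% of all genes passed. It had an unadjusted p under 0.05 in 10 of the 47, and the share of all genes at that threshold is not given here. The WT stage difference was the larger in 43 of the 47 genes. The interaction was above 0 in 8042 of the 15542 genes tested and in 4 of the 47, with a median of -0.40 over the 47. That median was -0.67 without WT preleukemic sample 20, -0.25 without sample 18 and -0.27 without sample 19. With Xist as a covariate, as sex is unbalanced between these groups, it was -0.35, though that fit cannot separate sex from stage in WT mice. Pcna had the smallest p (-0.48, SE 0.15, adjusted p = 0.398, limma), followed by Slbp (-0.68, SE 0.23, adjusted p = 0.506, limma), and then E2f1 (-0.64) and Orc2 (-0.50) with an adjusted p of 0.532 each by limma. The interaction and the genotype comparisons share samples with the stage comparisons, so they are not independent of them. Without sample 20 the interaction of Pcna was -0.67 (adjusted p = 0.0245, limma), and it was the single gene of the 47 to pass there.

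**Figure D4:**
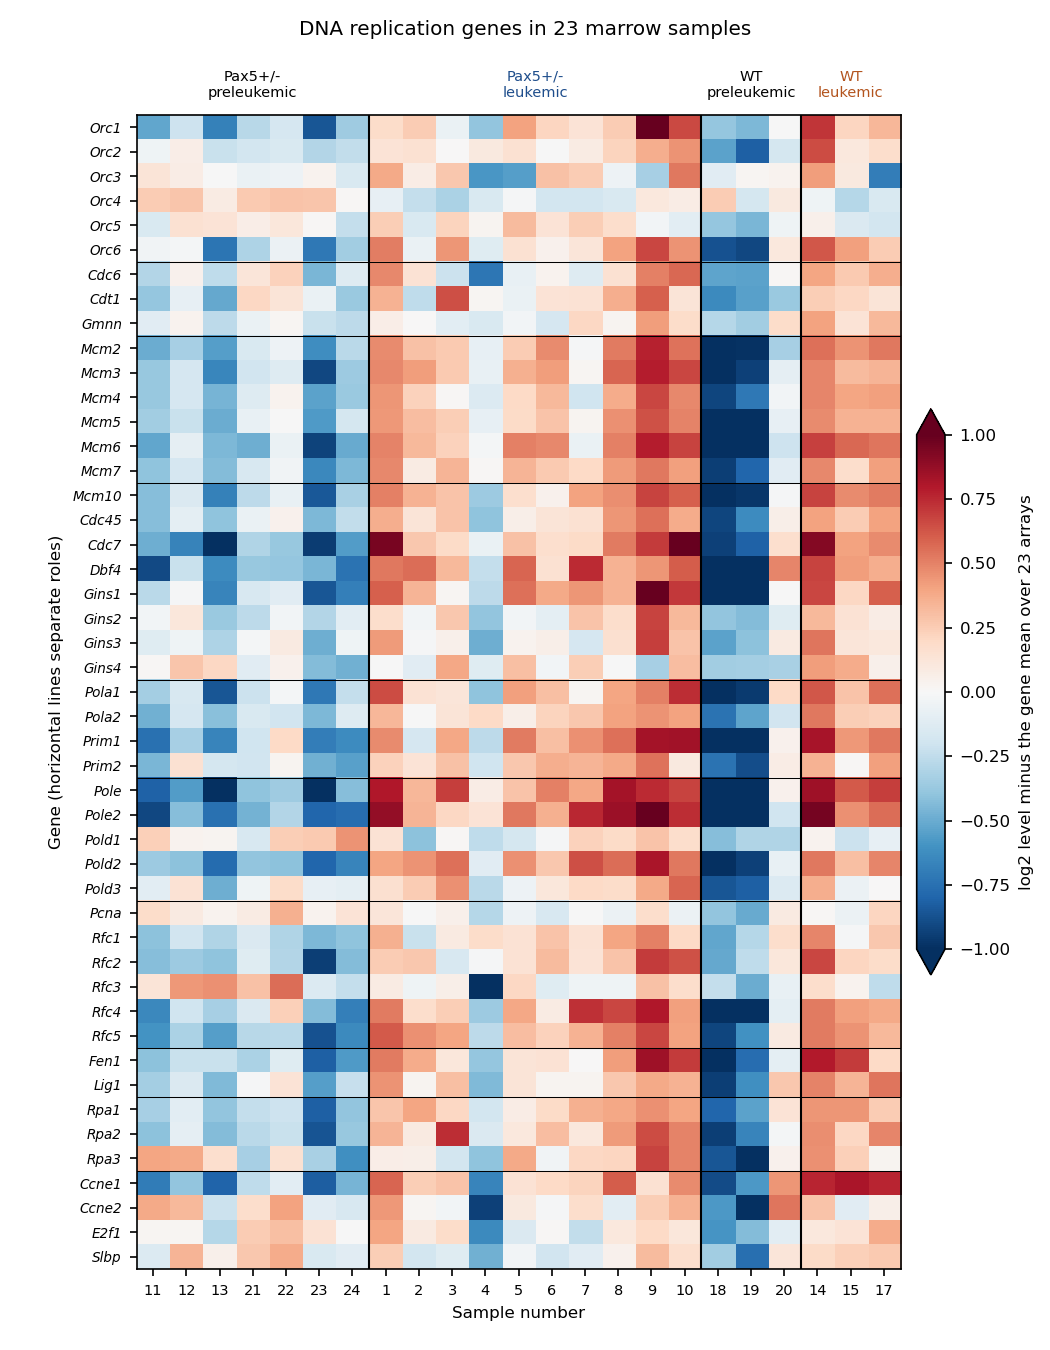
Level of each of the 47 genes (rows, by role) in each of the 23 samples (columns, by group), as the log2 difference from the mean of the gene over the 23 arrays, with colours saturated beyond -1 and 1. Leukemic columns are higher for most rows, sample 20 stands above samples 18 and 19, and Pax5+/- leukemia 4 is the lowest of its group in 35 of the 47 rows.

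Within a group, some samples were high or low over much of the module. Pax5+/- leukemia 4 was the lowest of the 10 leukemias in 35 of 47 genes (74.5%), as it was in 11.9% of all genes tested. Its median difference from the Pax5+/- preleukemic mean was 0.04, where the other 9 leukemias had 0.37 to 0.82. The same leukemia was lowest in 16 of 21 mitosis genes, lowest in mean neutrophil markers (6.53) and highest in mean megakaryocyte markers (11.2). Leukemia 9 was highest in 30 of 47 genes, as in 15.2% of all genes, and lowest in mean megakaryocyte (8.20), monocyte (7.02) and stroma (7.20) markers. The part of these other cells in the order of the leukemias was not tested.

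Order by replication genes and by mitosis genes was not the same in the leukemias. Leukemia 7 was highest in 15 of 21 mitosis genes and in 1 of 47 replication genes, beside 18.0% of all genes tested. Leukemia 9 was highest in 3 of 21 mitosis genes. Among Pax5+/- preleukemic cells sample 22 was highest in 27 of the 47 genes, as in 9.03% of all genes tested. Sample 23 was lowest in 24 of the 47, as in 16.1% of all genes. Among the 3 WT leukemias sample 14 was highest in 40 of the 47 (85.1%), as in 37.4% of all genes. Without leukemia 4 the Pax5+/- stage count was 34 higher, and Gins3 and Pold3 were the genes added.

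**Figure D5:**
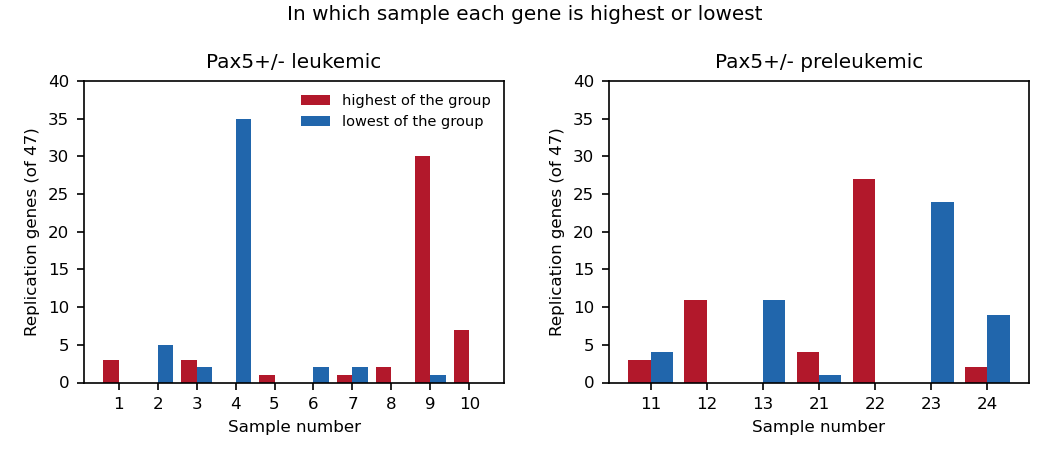
Number of the 47 genes (y axis) in which each Pax5+/- sample (x axis) is the highest (red) or the lowest (blue) of its group, ties counted, for the 10 leukemias (left) and the 7 preleukemic samples (right). Leukemia 9 holds 30 highest and leukemia 4 holds 35 lowest places, and preleukemic samples 22 and 23 hold 27 highest and 24 lowest places.

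Genes that work beside this machinery were taken from 7 lists. In Pax5+/- mice 13 of 26 fork accessory and initiation partners rose and 3 fell, in WT mice 17 rose and 1 fell. Timeless, of the fork protection complex, rose by 0.82 in Pax5+/- and 0.94 in WT mice, and Mcm8, a helicase of recombination repair, by 0.82 and 1.10. The nuclease-helicase Dna2 rose by 1.65 in Pax5+/- mice. Pold4, the smallest subunit of polymerase delta, fell by 0.86 in Pax5+/- and 1.20 in WT mice. Top1, a topoisomerase, and Donson, an initiation partner, fell by 0.47 and 0.28 in Pax5+/- mice. Donson did not pass in 11 of 36 settings of the fit, 10 of which left out 1 sample (adjusted p up to 0.093, limma). Polymerase delta thus had a subunit that rose (Pold2) and one that fell (Pold4) in both genotypes.

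Of 14 genes that place histones behind the fork, 10 rose and 1 fell in each genotype. Chaf1b, of the CAF-1 chaperone, rose by 0.88 and Rbbp7 by 0.71 in Pax5+/- mice, and Tonsl and the histone acetyltransferase Hat1 by 0.87 and 1.20 in WT mice. The histone chaperone Asf1a fell by 1.09 and 0.83. Of 13 genes of deoxynucleotide supply, 11 rose and 1 fell in each genotype, with medians of 1.19 and 1.32. Dctd, the dCMP deaminase, rose 12.4-fold in Pax5+/- and 11.4-fold in WT mice, and Cad, of pyrimidine synthesis, rose by 1.60 and 1.40 on the log2 scale. Gart, of purine synthesis, rose by 1.62 in WT mice. Dck, the salvage kinase for deoxycytidine, fell by 1.68 and 1.31. The nucleotide genes had larger median differences than the replication genes, a contrast that was not tested.

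Of 19 genes of the E2F and RB switch, 10 rose and 3 fell in Pax5+/- mice, and 9 rose and 3 fell in WT mice. E2f2, an activator E2F, fell by 2.24 and 1.72, and Rb1, the retinoblastoma protein, by 1.64 and 1.31. Cdk6, a G1 kinase that phosphorylates RB, rose by 2.06 and 2.39. Tfdp2, an E2F partner, fell by 0.73 in Pax5+/- mice. In WT mice Ccnd3, a D cyclin, fell by 0.84 and Cdk4 rose by 1.06. Ccnd3 did not pass without WT leukemia 14 (-0.60, adjusted p = 0.133, limma) or without WT preleukemic sample 19 (adjusted p = 0.0585, limma). Of 6 CDK inhibitor genes, Cdkn2c rose by 2.26 and 2.50, Cdkn1b fell by 1.34 and 1.22, and Cdkn2d fell by 0.50 and 0.72. In WT mice Cdkn2d was close to the threshold (adjusted p = 0.0451, limma) and did not pass in 19 of 36 settings of the fit (adjusted p up to 0.195, limma). Of 9 genes that degrade licensing factors, 6 rose in each genotype and 1 fell in Pax5+/- mice (Fbxw7, by 0.21). Ddb1 rose by 0.56 and 0.44 and Skp1 by 0.57 and 0.71, Fzr1 by 0.54 in Pax5+/- mice, and Dtl, which targets Cdt1, by 1.37 in WT mice. Skp1 did not pass in WT mice when the WT groups were fitted alone (adjusted p = 0.101, limma).

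Mitosis genes, which mark dividing cells but have no role at the fork, rose in 20 of 21 cases in Pax5+/- mice with a median difference of 1.30, above the 0.53 of the replication genes. Aurka, a spindle kinase, rose by 1.60, and the kinesins Kif2c and Kif20a by 2.01 and 1.61. In WT mice 18 of 21 rose (median 1.24), with Aurka, Kif2c and Kif20a at 1.66, 1.81 and 1.58. That WT count was 6 without sample 18, 8 without sample 19 and 11 without leukemia 14, and 1 when the WT groups were fitted alone.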

How the data were processed

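Total RNA was extracted with Trizol, fragmented and biotinylated, and hybridised to 1-colour arrays, 1 per mouse sample, per the labels' protocols. Signals per gene-level probe set were deposited by the authors as log2 values. The submitters' processing notes name Transcriptome Analysis Console with no version, and the background correction, summarization and normalization steps are not given in the sources used here. The deposited log2 values ran from 3.65 to 14.2 and array medians from 6.06 to 6.2. No depth applies to arrays, and precision is set by how many there were.

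Each sample was grouped by its title. Labels give each Pax5+/- sample a mouse number of its own. Where nothing more is said of separate animals, p-values measure the spread between samples. Of 28944 probe sets 21789 had a single symbol in the platform annotation, 1621 several and 5534 none. For each of 19938 symbols the single-symbol probe set of highest mean was used, and of the 47 genes 44 had 1 probe set and Pcna, Rpa3 and Slbp had 2. A gene was tested if it was above its array's 30th percentile on 3 or more arrays, leaving 15542. A single limma 3.58.1 model (R 4.3.3) held all 4 groups, with contrasts tested two-sided by eBayes with an intensity trend, p-values adjusted by Benjamini-Hochberg across the genes tested and called under 0.05. Folds are 2 raised to the log2 difference. The 47 genes, the pathway and marker lists and the alternatives were chosen with earlier results of these data known.

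Replication genes given in every sample or by group range were, in the Pax5+/- stage comparison, the 12 called genes of largest absolute difference and any that fell, in the WT stage comparison the 8 of largest difference and any that fell, and elsewhere every called gene or the 3 of smallest p. Pathway genes named were up to 3 called genes of smallest p per list and any called against the majority. Sample values of Pcna, Orc4, E2f1 and Ccne1 beyond this rule were chosen after they were seen. Simulated data were used to test the fits, with 200 of 15542 genes changed. Genes were drawn independently, with a single spread per gene shared by all groups. The real WT preleukemic samples were more variable for the replication genes than the other groups. Shares for contrasts that use those samples therefore describe the simulated data and may not hold for these. At a log2 change of 1 the share recovered was 94% for the Pax5+/- stage comparison, 81% for the WT one, 87% and 88% for the genotypes before and in leukemia, and 79% for the interaction. At a change of 0.5 these shares were 79%, 46%, 60%, 66% and 39%. Motif letters were searched in RefSeq promoter windows (GRCm38.p6). Alternatives covered the filter, eBayes options, array weights, quantile normalization, median centring, probe set choice, Xist or mouse number letter as a term, the groups in the fit, and samples left out. Figures were drawn with matplotlib 3.10.9.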

Additional observations from a re-analysis of the deposited data

Results flagged for a closer look

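Single samples lay far from the rest of their group in 8 of the 94 gene and group pairs examined for the Pax5+/- samples, where chance would give about 1 in 20, and groups of 3 were not examined. Leukemia 4 was the distant sample in 6 of them, each time as the lowest. Its log2 level of Rfc3 was 7.84, with the next lowest leukemia at 8.92. Its Cdc45 was 8.14 against 8.60, its Rfc5 9.54 against 10.03, and its Lig1 8.66 against 9.13. Its cyclin E genes were Ccne1 at 7.80 against 8.60 and Ccne2 at 7.41 against 8.24. Preleukemic sample 23 was the distant sample for Rfc2, at 7.89 with the next lowest at 8.40, and for Rpa1, at 8.03 with the next lowest at 8.45. These genes share the sample, so the flags are not independent of one another.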

How the results depend on the processing

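Across 36 settings of the fit, 31 of the 33 replication genes called in the Pax5+/- stage comparison passed in every setting and all 33 kept their direction. The exceptions were Gins2 (26 of 36, highest adjusted p 0.158, limma) and Lig1 (33 of 36, highest adjusted p 0.0674, limma). In the WT stage comparison 22 of 40 passed in every setting and all 40 kept their direction. The Pax5+/- count of genes that fell was 2 in place of 1, with Pcna added, under array weights, under quantile normalization, with only the 2 groups of the contrast and with WT samples 15, 17 and 20 left out. It ranged from 1 to 2 when each sample was left out in turn, and the count that rose from 30 to 34. The WT count that fell was 1 in place of 0, namely Orc4, under array weights and under quantile normalization, and 0 to 1 with each sample left out, while the count that rose was 27 to 42. The count higher in Pax5+/- than in WT preleukemic cells was 21 under array weights and 0 to 7 with each sample left out. It was 5 with WT samples 15, 17 and 20 left out, a setting that kept 2 WT preleukemic samples and 1 WT leukemia. The interaction count was 2 under array weights and 0 to 1 with each sample left out. With those 3 WT samples left out, the interaction of Orc2 was -1.01. The WT leukemic level there came from sample 14 alone, so that setting holds no spread among WT leukemias. The cause of these changes was not tested. No called gene of the 47 changed its direction. Of those not called, 4 turned sign in the Pax5+/- stage comparison in at least 1 setting (Orc3 down to -0.05, Orc5 down to -0.05, Ccne2 up to 0.02, E2f1 up to 0.01) and Orc3 did in the WT one, as did 13 genes between genotypes before leukemia, 22 in leukemia and 10 in the interaction. A filter at the 50th percentile left 4109 higher among 7793 called genes of all genes in the Pax5+/- stage comparison, in place of 4357 among 10034. No paired analysis was made, because each Pax5+/- sample has a mouse number of its own and the labels give none for the WT samples. Precision is limited by 3 arrays in each WT group.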
